A study of Brassica napus with 12 samples.

Results

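H3K4me3 was compared between seedlings and flower buds of HZ62, a hybrid of the oilseed crop *Brassica napus*, over every region in which either tissue had a peak. The comparison used 4 libraries of chromatin immunoprecipitation followed by sequencing (ChIP-seq), 2 from seedlings of 2 weeks and 2 from flower buds under 2 mm, out of 12 libraries in the series. Peaks of the 4 lists, 183152 of the 402642 peaks in the series, that shared at least 1 bp were joined, giving 51167 regions. The libraries of silique (the seed pod, 3 to 5 cm long), and those of a second mark, H3K27me3, were used only as further readouts at these regions. All plants carried the genotype called WT in the labels, with no other allele or agent, and grew under 16 h of light at 22 °C and 8 h of dark at 18 °C. Each library came from about 1 g of tissue, so it averages over the cells of a whole seedling or bud, and a change in the share of a cell type cannot be told apart from a change of the mark within cells. The titles name the seedling libraries leaf, whereas the tissue field names them seedling. No gene annotation of the files' genome was used, so regions are named by position on the numbered sequences of the files, and neither the genes beneath them nor the tissue labels were checked against marker genes.

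H3K4me3 is trimethylation of lysine 4 of histone H3, placed by methyltransferases of the Trithorax group on the nucleosomes that follow the start of transcribed genes. Its height and breadth at a gene tend to go with transcription, and at genes in steady use it forms a narrow block at the 5′ end. H3K27me3 is placed by Polycomb complexes at developmental genes that are kept silent. In plants, genes of floral organs carry it in leaves and many leaf genes gain it in flowers.

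The seedling libraries held 8609548 and 10914885 fragments and the flower bud libraries 9707589 and 10195899. Peak lists numbered 47545 and 48825 in seedling, against 43634 and 43148 in flower bud. The seedling libraries bear the consecutive library numbers 53 and 54 and had fragments of 236 and 246 bp, while those of flower bud come from a later stretch of numbers and had fragments of 304 and 310 bp. Tissue, library number and fragment size thus went together in these 4 libraries and cannot be told apart. The labels leave unsaid whether replicate libraries came from separate plants, so p-values measure how far these libraries vary, and that variation may be technical.

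The first question was how far the 2 tissues marked the same places. Most regions were common to them: 39998 of 51167 (78.2%) had a peak in all 4 libraries and are called shared below. Another 4885 had a peak in each seedling library and in no flower bud library, which is 9.55% of all regions, and 1399 had the reverse, which is 2.73%. Libraries of 1 tissue resembled each other more than those of different tissues did. The Jaccard index, here the base pairs in both lists divided by those in either, was 0.854 between the seedling libraries and 0.870 between the flower bud libraries, against 0.693 to 0.719 between tissues. Pairs within a tissue averaged 0.155 more than pairs across tissues, with an exact permutation p of 0.333, the smallest that the 3 ways to pair 4 libraries allow.

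The remaining 4885 regions were split within a tissue. Seedling replicate 2, the deepest of the 4 libraries, alone had 1411 of them, and seedling replicate 1, the shallowest, alone had 456. The flower bud libraries alone had 326 and 306. Patterns that crossed the tissues, with 1 library of each, were rare, at 26 to 137 regions.

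**Figure D1:**
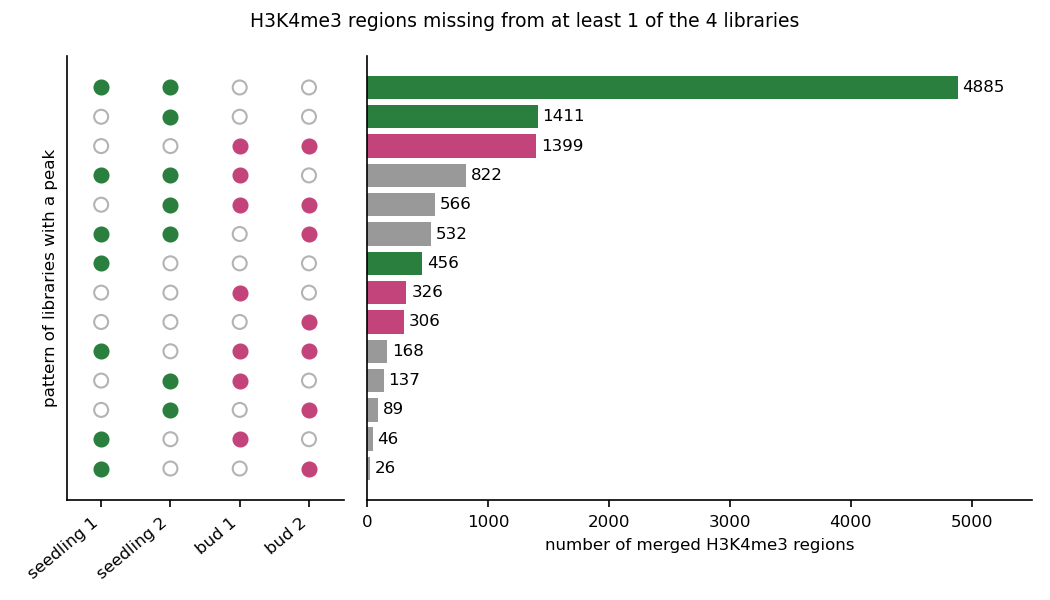
Number of merged H3K4me3 regions (x axis) for each pattern of presence in the 4 libraries, other than presence in all 4. Filled circles mark libraries with a peak; green bars are patterns of seedling libraries alone, pink bars of flower bud libraries alone and grey bars of both tissues. The pattern of both seedling libraries alone held 4885 regions, against 1399 for both flower bud libraries alone.

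Regions present in 1 tissue were weak and narrow. The pileup, the number of fragments that cover the summit of a peak, had a median of 32 and 42 in the 2 seedling libraries at the seedling-only regions, against 76 and 98 at the shared regions. At the bud-only regions it was 39 and 40 in the flower bud libraries, against 101 in each at the shared regions. Median peak widths in the same libraries were 457 and 516 bp at seedling-only regions and 675 and 720 bp at shared regions. They were 550 and 571 bp at bud-only regions and 747 and 774 bp at shared regions. Few of these regions were as strong as a typical shared one: 210 of the 4885 seedling-only regions (4.30%) and 48 of the 1399 bud-only regions (3.43%) reached the median pileup of shared regions in both of their libraries. Absence of a peak shows only that none was called at this depth. Where a region had to have a pileup, scaled by fragments, as high as the median of each list that lacked it, 152 regions stayed seedling-only and 84 bud-only. With the strongest 43148 peaks of each list, the counts were 2770 and 2830, so the excess on the seedling side depended on the longer seedling lists.

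Each of sequences 1 to 19 had more seedling-only than bud-only regions, and the shares by sequence given next are of these 19. The other sequences held 47 regions, of which 1 was seedling-only and 6 were bud-only. Seedling-only regions made up between 8.18% of all regions on sequence 10 and 12.3% on sequence 2, and bud-only regions between 2.25% on sequence 8 and 3.49% on sequence 5. Sequences 2 and 12 had the highest shares of seedling-only regions, at 12.3% and 11.4%, and also the highest shares of shared regions that were higher in seedling, at 20.9% and 18.5%. Regions of 1 tissue stood somewhat farther from others: the nearest shared region lay a median of 5866 bp from seedling-only regions and 5247 bp from bud-only regions, while shared regions lay 4419 bp from the next. Of the seedling-only regions 32.7% had no shared region within 10 kb, as did 30.0% of the bud-only and 24.5% of the shared regions. Only 7.16% and 7.29% lay within 1 kb of a shared region, close to the 7.59% among shared regions themselves. The 4885 regions split within a tissue were spaced much as those of 1 tissue. Their median distance to a shared region was 5461 bp, and 30.6% had none within 10 kb.

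A few regions of 1 tissue were strong. To compare libraries, pileups were divided by the library's median over shared regions, so that a scaled pileup of 1 is a typical shared region. The strongest seedling-only region lay on sequence 2 from 33173997 to 33175410, with pileups of 270 and 324 in the seedling libraries, or 3.55 and 3.31 after scaling, and no peak in flower bud. It also lacked peaks in both silique libraries and in all 6 H3K27me3 libraries, and its nearest shared region was 15648 bp away. Among the 6 seedling-only regions named here it was the only one without silique peaks.

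The 5 next strongest seedling-only regions had peaks in both silique libraries. On sequence 2 from 3437316 to 3438559 the pileups were 202 and 243 in seedling, and silique had 111 and 96. On sequence 3 from 15007543 to 15008778 the scaled pileups were 2.46 and 2.42 in seedling, with 1.09 and 1.20 in silique. On sequence 14 from 3102804 to 3104621 the scaled values were 2.39 and 2.44 in seedling, with 0.48 and 0.40 in silique. These 3 regions, none of which had a flower bud H3K4me3 peak, were all covered by H3K27me3 in both flower bud libraries. Over 787 and 854 bp of the region on sequence 2, 1181 and 1236 bp of that on sequence 3, and 752 and 830 bp of that on sequence 14, flower bud carried H3K27me3. The region on sequence 14 from 2071910 to 2073647 had seedling pileups of 173 and 237, and flower bud H3K27me3 covered 1178 and 761 bp of it. The last, on sequence 4 from 21182981 to 21184333, had seedling pileups of 168 and 217 and no H3K27me3 peak in any library. Of these 6 regions, then, 4 carried H3K27me3 in both flower bud libraries, and at 1 of them, on sequence 2, seedling replicate 1 also had it over 370 bp.

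Among the strongest bud-only regions, 3 had the opposite arrangement, with H3K27me3 in seedling and none in flower bud. On sequence 18 from 53101716 to 53103582 the pileups were 289 and 282 in flower bud, with no peak in seedling, and seedling H3K27me3 covered 1755 and 897 bp where flower bud H3K27me3 covered none. On sequence 9 from 44472982 to 44474826 they were 281 and 264 in flower bud, and seedling H3K27me3 covered 538 and 842 bp, again with none in flower bud. On sequence 15 from 19008547 to 19010284 they were 216 and 225, with 1101 and 959 bp of seedling H3K27me3 and none in flower bud. At these 3 regions each tissue had only 1 of the 2 marks.

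A pair of bud-only regions near the start of their sequences carried H3K27me3 in both tissues. One lay on sequence 10 from 31635 to 33278, with flower bud pileups of 243 and 260. The other lay on sequence 15 from 44528 to 46041, with flower bud pileups of 265 and 227. Seedling H3K27me3 covered the whole of each, 1644 and 1514 bp, in both libraries. Flower bud H3K27me3 covered 359 and 573 bp of the first and 483 and 443 bp of the second, so there the H3K4me3 and H3K27me3 peaks of flower bud overlapped in part. The sixth region, on sequence 7 from 12043712 to 12045469, had 186 and 189 in flower bud and no H3K27me3 peak in any library. All 6 bud-only regions named here had H3K4me3 peaks in both silique libraries, with scaled pileups from 0.37 on sequence 7 to 2.51 on sequence 9.

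**Figure D2:**
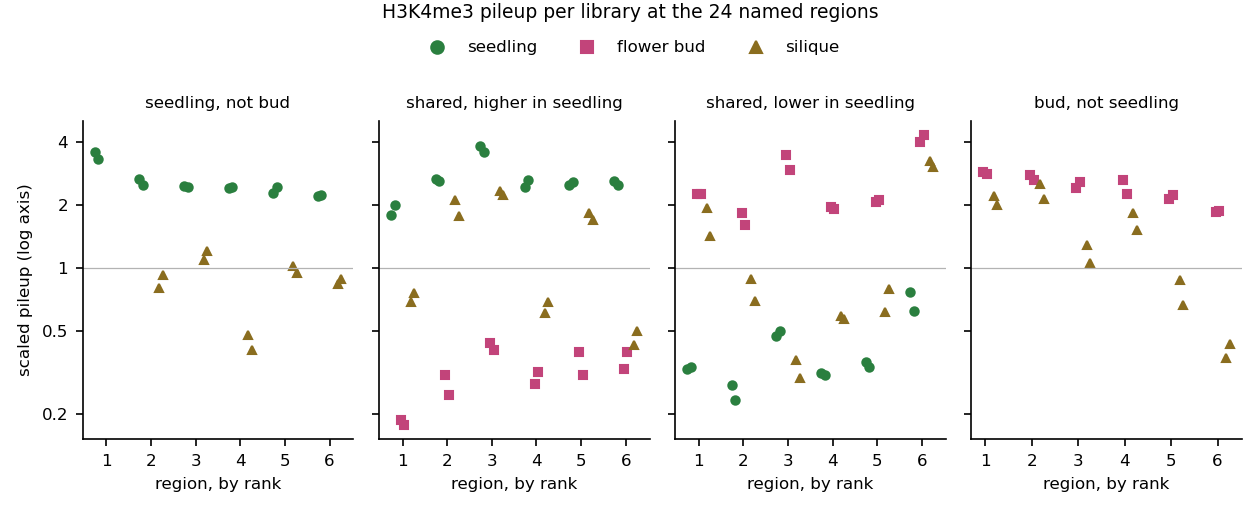
Scaled pileup (log axis; 1 is the library's median shared region) at the 6 regions named in each class, ranked 1 to 6. Each point is 1 library: green circles for seedling, pink squares for flower bud and brown triangles for silique; a tissue with no point had no peak. The 12 shared regions drawn were chosen as the largest pileup changes, so their seedling and flower bud points lie apart by that choice.

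The second question was how the strength of the mark differed at the 39998 shared regions. Of these, 1362 were at least 2-fold higher in seedling (3.41%) and 1050 at least 2-fold lower (2.63%), at an adjusted p under 0.05 in limma with Benjamini-Hochberg adjustment. At least 4-fold, the counts were 99 (0.248%) and 42 (0.105%). With no minimum fold, 6761 regions were higher in seedling (16.9%) and 10113 lower (25.3%), which is 40.1% and 59.9% of those called. The log2 difference of scaled pileup, seedling minus flower bud, lay between -0.79 and 0.84 for 90% of the regions, with a median of -0.06. Scaling by fragments in place of the median shifted the median difference to -0.25 and gave 19.3% higher against 80.7% lower, so the split depended on the scaling. It did so at 2-fold or more too, where scaling by fragments gave 874 higher and 1882 lower, which turned the direction of the excess. Where the peaks of a library had to cover 50% of a region, 885 were at least 2-fold higher and 569 lower. Without seedling replicate 2, limma called 0 regions in either direction at the adjusted threshold, including those named below, with 13880 at an unadjusted p under 0.05, and changes of at least 2-fold counted with no test numbered 1454 higher and 1086 lower.

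The direction of small differences went with the strength of the region. Shared regions were divided into 10 equal classes of mean scaled pileup. In the strongest class, with a median scaled pileup of 2.45, 4.45% were higher in seedling and 63.2% lower. In the second weakest class, with a median of 0.538, 26.5% were higher and 16.0% lower. Flower bud libraries thus spanned a wider range of pileup than seedling libraries. When the 4 libraries were given the same distribution by quantile normalisation, which was added once the values were known, 17.6% of the strongest class were higher in seedling and 22.4% lower, and over all shared regions the counts were 6994 and 7294. Under this setting the counts of regions changed 2-fold or more were 1308 higher and 1046 lower. Fragment size moved with tissue, as given above, and its part in this pattern was not tested.

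**Figure D3:**
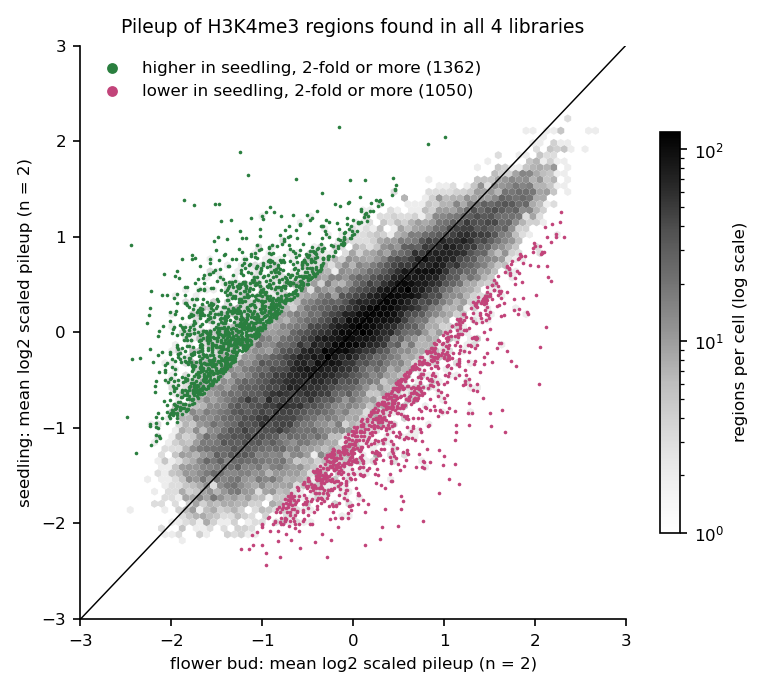
Mean log2 scaled pileup of the 2 seedling libraries (y axis) against that of the 2 flower bud libraries (x axis) for the 39998 shared regions; grey cells count regions on a log scale and the line marks equality. The 1362 regions at least 2-fold higher in seedling (green) and the 1050 at least 2-fold lower (pink) passed an adjusted p of 0.05 in limma, and at the strong end the cloud lies below the line.

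**Figure D4:**
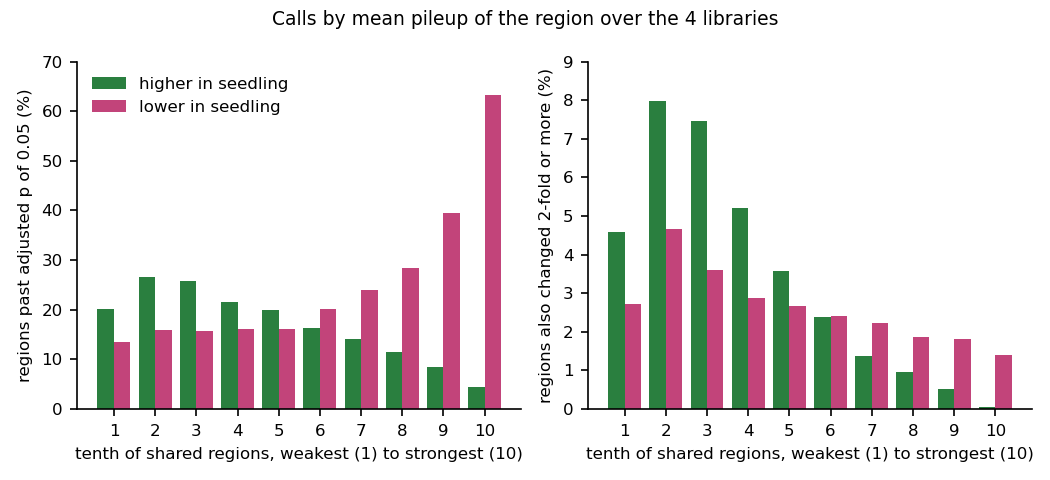
Share of shared regions called higher (green) or lower (pink) in seedling in each of 10 equal classes of mean scaled pileup, from weakest to strongest, at an adjusted p of 0.05 (left) and with a change of at least 2-fold as well (right). The share called lower reached 63.2% in the strongest class, while changes of at least 2-fold were commonest in the classes next to the weakest.

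The regions that rose most in seedling were strong there and weak in flower bud. Each SE given here and below is limma's, from a spread drawn in part from all shared regions. On sequence 10 from 13564447 to 13566554 the scaled pileups were 1.78 and 2.00 in seedling, against 0.19 and 0.18 in flower bud, a log2 difference of 3.36 ± 0.18 (SE, n = 2 each; limma adjusted p = 3.8e-20). Seedling peaks there spanned 1713 and 2039 bp, and flower bud peaks 503 and 456 bp. On sequence 2 from 11183042 to 11184774 the pileups were 201 and 253 in seedling, against 31 and 25 in flower bud, a log2 difference of 3.24 ± 0.16 (SE). Both regions had silique peaks, with scaled pileups of 0.69 and 0.76 at the first and 2.09 and 1.76 at the second.

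On sequence 12 from 20885964 to 20887789 the pileups were 288 and 351 in seedling, against 44 and 41 in flower bud, a log2 difference of 3.13 ± 0.13 (SE). This was the only one of the 6 with H3K27me3 peaks, over 427 and 399 bp in the seedling libraries and 1513 and 1553 bp in the flower bud libraries. Sequence 14 from 65066122 to 65067871 had pileups of 184 and 258 in seedling, against 28 and 32 in flower bud. Sequence 15 from 6765837 to 6767220 had 189 and 252 in seedling, against 40 and 31 in flower bud. Sequence 9 from 6567010 to 6568274 had 198 and 242 in seedling, against 33 and 40 in flower bud. Their log2 differences were 3.09, 2.86 and 2.82. Silique sided with seedling at some of these regions and with flower bud at others. Its scaled pileups were 1.83 and 1.68 on sequence 15, nearer to the 2.49 and 2.57 of seedling, and 0.43 and 0.50 on sequence 9, nearer to the 0.33 and 0.40 of flower bud.

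With pileups scaled by the median, the regions that fell most in seedling changed less than those that rose most, each of the 6 by less than any of those 6. This order did not hold with scaling by fragments. The smallest of the 6 falls was then -2.77 on the log2 scale, while the rises on sequences 15 and 9 were 2.67 and 2.63. On sequence 6 from 26722435 to 26723829 the pileups were 25 and 33 in seedling, against 227 in each flower bud library, a log2 difference of -2.76 ± 0.15 (SE, n = 2 each; limma adjusted p = 9.4e-20). On sequence 1 from 8786785 to 8787821 they were 21 and 23 in seedling, against 185 and 161 in flower bud, a log2 difference of -2.75. On sequence 10 from 20207029 to 20208627 they were 36 and 49 in seedling, against 350 and 295 in flower bud, a log2 difference of -2.71. The region on sequence 10 was high in flower bud alone, since silique had scaled pileups of 0.36 and 0.30 there, under the 0.47 and 0.50 of seedling.

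On sequence 11 from 13508369 to 13509566 the scaled pileups were 0.32 and 0.31 in seedling, against 1.94 and 1.91 in flower bud. On sequence 14 from 17979014 to 17980224 the pileups were 27 and 33 in seedling, against 207 and 212 in flower bud. The region on sequence 14 carried H3K27me3 in both tissues, over 837 and 864 bp in seedling, against 949 and 990 bp in flower bud. On sequence 1 from 1490239 to 1491579 the pileups were 58 and 61 in seedling, against 402 and 433 in flower bud, a log2 difference of -2.58 ± 0.11 (SE). There H3K27me3 was found in the seedling libraries, over 645 and 499 bp, and not in those of flower bud or silique. Silique H3K4me3 was high at this region, with scaled pileups of 3.22 and 3.01.

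A further question was whether regions also differed in width. Peaks at shared regions had median widths of 675 and 720 bp in seedling, against 747 and 774 bp in flower bud, a median difference of -0.13 on the log2 scale. Widths were therefore centred on each library's median before the test. Relative to it, 4716 regions were wider in seedling (11.8%) and 3382 narrower (8.46%) at a limma adjusted p under 0.05, and 616 (1.54%) and 354 (0.885%) of these changed at least 2-fold. Without centring, 2602 were wider and 5532 narrower, so the direction of the excess turned. Without flower bud replicate 2, 4017 were wider and 2157 narrower.

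Width mostly went with height. Of the 6761 regions that were higher in seedling, 3367 (49.8%) were also wider there and 31 narrower. Of the 10113 that were lower, 2604 (25.7%) were narrower and 118 wider. Over the shared regions, which share their libraries and a peak caller that draws wider peaks around higher summits, the log2 differences of pileup and width had a Pearson r of 0.753 and a Spearman rho of 0.724 (n = 39998 regions).

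The regions that widened most in seedling were about 2 kb long there and much shorter in flower bud. On sequence 10 from 9597668 to 9599889 the peaks spanned 2147 and 2194 bp in seedling, against 372 and 311 bp in flower bud, a centred log2 difference of 2.80 ± 0.11 (SE, n = 2 each; limma adjusted p = 3.9e-05). At this region the flower bud summits lay at 9597778 and 9598996, so the 2 flower bud widths are of separate peaks. On sequence 5 from 23630712 to 23633220 the peaks spanned 2509 and 2249 bp in seedling, against 335 and 418 bp in flower bud. On sequence 8 from 19180063 to 19182560 they spanned 1936 and 2498 bp in seedling, against 353 and 411 bp in flower bud. On sequence 12 from 59715568 to 59717523 they spanned 1956 and 1846 bp in seedling, against 337 and 371 bp in flower bud. Flower bud had H3K27me3 over 1873 and 1956 bp there, where seedling had none. The flower bud summits there lay at 59716472 and 59716822, so the 2 flower bud widths may be of separate peaks. All 4 were also higher in seedling by pileup, by 2.03 on the log2 scale at the first of them.

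Among the regions that narrowed most in seedling, 2 changed width with little difference in height. On sequence 9 from 33157865 to 33160040 the peaks spanned 426 and 410 bp in seedling, against 2170 and 2176 bp in flower bud, while the pileups were 43 and 34 in seedling, against 41 and 45 in flower bud. On sequence 14 from 42830542 to 42832599 they spanned 448 and 395 bp in seedling, against 1993 and 1956 bp in flower bud, with pileups of 48 and 53 in seedling, against 57 and 72 in flower bud. The log2 differences of scaled pileup were 0.06 ± 0.21 and -0.12 ± 0.18 (SE, n = 2 each), with limma adjusted p of 0.85 and 0.63. These heights were partly taken at different places. On sequence 9 the summits lay at 33157998 and 33158106 in seedling, against 33159351 and 33159781 in flower bud. On sequence 14 they lay at 42832223 and 42832229 in seedling, against 42831413 and 42832232 in flower bud. The other two also fell in pileup. Sequence 11 from 12561139 to 12563212 had peaks of 311 and 356 bp in seedling, against 2073 and 1875 bp in flower bud, and its pileup fell by 1.54 on the log2 scale. Sequence 19 from 59926284 to 59928442 had peaks of 333 and 458 bp in seedling, against 2148 and 2020 bp in flower bud, and its pileup fell by 1.28.

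Height and width moved in opposite directions in few regions, the 31 and 118 given above. The largest, by the product of both log2 differences, was on sequence 18 from 33226349 to 33227035, where seedling had peaks of 285 and 282 bp with pileups of 110 and 112 and flower bud had peaks of 667 and 589 bp with pileups of 54 and 51. Silique had no peak there. On sequence 13 from 12064285 to 12066542 seedling had the lower and wider peaks, with pileups of 58 and 85 over 2115 and 2181 bp, against 148 and 146 over 1057 and 829 bp in flower bud. The seedling summits there lay at 12066193 and 12064814, so the 2 seedling heights were taken at different places. When width there was taken from the first to the last base of a library's peaks, the difference was 0.86 on the log2 scale (limma adjusted p = 0.13). On sequence 17 from 54054079 to 54054880 the peaks had pileups of 31 and 38 over 291 and 267 bp in seedling, against 27 and 20 over 725 and 713 bp in flower bud. There the seedling summits lay at 54054795 and 54054206, so the 2 seedling libraries had separate peaks within the region. The pileup difference no longer passed without flower bud replicate 2, at a log2 difference of 0.56 (limma adjusted p = 0.11).

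Very wide regions were a small class, and which regions reached 2 kb differed in part between the tissues. Widths are taken here as measured, without centring. Peaks of 2 kb or more numbered 294 and 384 in the seedling libraries and 281 and 396 in the flower bud libraries. There were 118 shared regions with 2 kb or more of peak in all 4 libraries, 138 that were this wide only in the seedling pair, and 113 that were so only in the flower bud pair. By centred width, 134 of the 138 were called wider in seedling and 70 of the 113 narrower. Of the 138, 78 were also higher in seedling by pileup (56.5%) and 16 lower (11.6%), and of the 113, 2 were higher (1.77%) and 87 lower (77.0%), against 16.9% higher and 25.3% lower over all shared regions. Of the 118 that were wide in all 4 libraries, 16 were higher in seedling (13.6%) and 58 lower (49.2%).

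The place of the summit was kept at nearly all shared regions. The median distance between summits was 33 bp between the seedling libraries, 31 bp between the flower bud libraries, and 34 to 37 bp between tissues. In 247 shared regions (0.618%) the summits of each tissue lay within 100 bp of one another and those of the 2 tissues 300 bp or more apart, with a median shift of 631 bp. These were wide regions, with a median merged width of 1553 bp against 840 bp for all shared regions. With any 1 of the 4 libraries left out, which needs no agreement within its tissue, 462 to 491 regions met the rule. Of the 247, 72 were higher in seedling by pileup and 71 lower, where the shares over all shared regions were 16.9% and 25.3%. By width 72 were wider and 23 narrower, where the shares over all shared regions were 11.8% and 8.46%.

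The longest shift, of 1956.5 bp, fell in the region on sequence 12 from 10443480 to 10446878, where the peak of each of the 4 libraries spanned over 3 kb. Its summits lay at 10444556 and 10444616 in seedling, against 10446529 and 10446556 in flower bud. On sequence 6 from 21969399 to 21971872 the shift was 1709.5 bp, and the peaks covered 569 and 670 bp in seedling, against 1742 and 2474 bp in flower bud. H3K27me3 overlapped this region in both libraries of both tissues, over 1188 and 946 bp in seedling, against 1159 and 1249 bp in flower bud. On sequence 9 from 9035047 to 9037559 it was 1684 bp, and each seedling library had 2 separate peaks where each flower bud library had 1.

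Runs of neighbouring regions on the same side were also listed. Taking regions of 1 tissue and shared regions called by pileup as 1 side, 22.8% of all regions were on the seedling side and 22.5% on the flower bud side. The longest runs of consecutive regions on 1 side held 7 regions each, while runs of 5 or more numbered 42 on the seedling side and 30 on the flower bud side. Whether such runs are more frequent than these shares alone would give was not tested. One seedling run of 7 covered 47.8 kb of sequence 3 from 15349902 to 15397711, with 4 seedling-only regions and 3 shared ones whose log2 differences ranged from 0.76 to 1.44. Another seedling run of 7 covered 95.2 kb of sequence 9 from 26762242 to 26857425, with 3 seedling-only regions and 4 shared ones between 0.35 and 1.07, and one of 6 covered 18.2 kb of sequence 5 from 4545399 to 4563615, with 4 seedling-only regions and shared ones between 0.48 and 1.24. On the flower bud side, a run of 7 on sequence 3 from 6495687 to 6535751 had 3 bud-only regions and 4 shared ones between -0.36 and -0.28, and ones of 6 on sequence 3 from 25540667 to 25593772 and on sequence 2 from 10052763 to 10107976 ranged from -0.78 to -0.46 and from -0.90 to -0.41.

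Silique gave a readout that played no part in sorting the regions. Of the seedling-only regions 23.6% had peaks in both silique libraries and 66.4% in neither. Of the bud-only regions 47.7% had peaks in both and 42.3% in neither. Among all merged regions 81.3% had peaks in both, among shared ones 95.3%, and among the 4885 split within a tissue 34.3%. Of the 1362 shared regions at least 2-fold higher in seedling, 1166 had peaks in both silique libraries, and at 740 of these (63.5%) the silique level was nearer to flower bud than to seedling. Of the 1050 at least 2-fold lower, 998 had them, and at 666 (66.7%) silique was nearer to flower bud. At the 1166 regions (the first set) median log2 scaled pileups were 0.21 in seedling, -1.25 in flower bud and -0.78 in silique. At the 998 regions (the second set) they were -0.92, 0.42 and 0.04. Regions that lacked a silique peak in 1 or both libraries are not in these medians. By these medians silique lay between the tissues, on the flower bud side of the middle for both sets. Region by region, silique lay between them at 813 of the 1166 (69.7%) and 641 of the 998 (64.2%). Among the 1166 it was above both tissues at 97 and below both at 256. Among the 998 these counts were 258 and 99. Both sets were chosen for a large difference between seedling and flower bud, so a silique level between them may follow from that choice. The silique libraries belong to the later stretch of library numbers, as flower bud does.

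H3K27me3 was commoner at regions that were not called in all 4 libraries than at shared ones. Of all merged regions 3.73% and 3.15% overlapped a peak of the 2 seedling H3K27me3 libraries and 6.25% and 6.55% one of the 2 flower bud libraries. Among seedling-only regions the shares were 10.1% and 8.27% with seedling and 22.9% and 23.6% with flower bud. Among bud-only regions they were 23.6% and 20.4% with seedling and 21.7% and 22.4% with flower bud. At the 4885 regions split within a tissue, on which replicate libraries differed, they were 9.79% and 8.27% with seedling and 14.5% and 15.3% with flower bud, so the seedling shares there were close to those at seedling-only regions. At shared regions they were 1.53% and 1.30% with seedling and 2.67% and 2.84% with flower bud. The flower bud H3K27me3 libraries were the deeper, with 11513204 and 10929797 fragments against 3647059 and 3479885 in seedling, which bears on any share compared between the tissues; its part was not tested.

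The share was also larger with a larger change at shared regions. It was 1.10% and 0.895% in seedling, against 1.76% and 1.93% in flower bud at the 23124 shared regions not called by pileup. At those at least 2-fold higher in seedling H3K4me3 it was 4.55% and 3.45% with seedling H3K27me3 and 14.0% and 14.2% with that of flower bud, and at the 99 that were at least 4-fold higher it was 8.08% and 7.07% in seedling and 33.3% in each flower bud library. At the 1050 that were at least 2-fold lower in seedling it was 7.24% and 6.95% with seedling and 7.33% and 7.71% with flower bud. At the 42 of these that were at least 4-fold lower, 11 overlapped H3K27me3 in each seedling library (26.2%), against 7 and 8 in the flower bud libraries. None of the 42 had H3K27me3 in both flower bud libraries and neither seedling library, while 4 had the reverse.

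Opposite marks were thus found in both directions, in few regions. H3K27me3 in the flower bud pair and not the seedling pair was seen at 555 of the 4885 seedling-only regions (11.4%), and the reverse at 2. Among the 1399 bud-only regions, 25 (1.79%) had H3K27me3 in the seedling pair and not the flower bud pair, and 18 the reverse. Over all merged regions the counts were 81 (0.158%) with seedling H3K27me3 alone and 1251 (2.44%) with that of flower bud alone, an imbalance in the direction of the depths. At the shared regions that were higher in seedling 243 (3.59%) had it in flower bud alone and 1 (0.0148%) in seedling alone. At those that were lower the counts were 64 (0.633%) and 34 (0.336%). Over all shared regions the shares were 1.14% in flower bud alone and 0.108% in seedling alone.

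**Figure D5:**
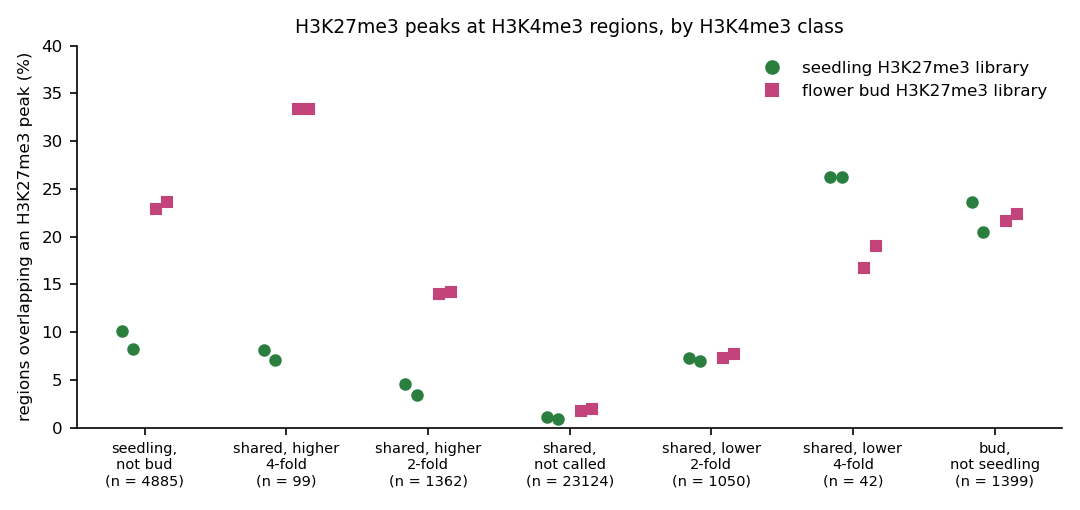
Share of H3K4me3 regions (y axis, in percent) that overlap an H3K27me3 peak by 1 bp or more, for each H3K4me3 class (x axis, with its number of regions). Each point is 1 H3K27me3 library, green circles for seedling and pink squares for flower bud. Flower bud shares reach 33.3% at regions at least 4-fold higher in seedling H3K4me3, and seedling shares reach 26.2% at those at least 4-fold lower.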

How the data were processed

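The 12 peak lists were used as deposited by the authors, 1 list per library and none pooled. MACS 2.2.7.1 called them as narrow peaks from read pairs, per the file headers, with a q threshold of 1e-05 and 1 merged control of 12042843 fragments for every list. BWA, SAMtools and GATK are also named in the submitters' processing notes, and the genome build is not given in the sources used here. The pileup in the deposited files is a signal, namely how many fragments cover the summit. The −log10 q-value and the fold, a ratio to the local control, are deposited per peak and served alternatives only; the −log10 p-value was not used. Peaks with fewer fragments have a larger counting error, and it covers no other error.

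A library counted as having a region when 1 of its peaks touched it; its pileup was that of its highest peak there and its width the summed length of its peaks. Seedling minus flower bud was tested with limma 3.58.1 (eBayes with trend) on log2 scaled pileup and on log2 width centred on the library's median, over all 39998 shared regions with Benjamini-Hochberg adjustment. No pseudocount was needed. Adjusted p-values rest on 2 libraries per tissue. Each SE and p-value uses a spread that limma moves toward the trend over all shared regions. The prior degrees of freedom were 45.3 for pileup and 5.28 for width. They therefore do not measure the spread of a region's own libraries alone. Data were also simulated with a spread drawn from all regions together and with 100 planted changes of each size. For pileup, 97 of 100 changes of 1 on the log2 scale and 10 of 100 of 0.5 were recovered, with 3 calls that were not planted. For width 87 and 0 of 100 were recovered, with 1. In the real data 42.2% of regions were called by pileup and spread may differ by region, so these rates need not hold there.

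Named are, each way, the 6 strongest regions of 1 tissue, the 6 largest changes of pileup and 4 of width among those called, 3 runs, and in all 3 summit shifts and 3 opposite changes. The comparison and these lists were chosen with earlier results of these data known. Silique and H3K27me3 states, runs and positions are counts with no test. Python 3.11.15 with pandas 2.3.3 and R 4.3.3 were used.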

Additional observations from a re-analysis of the deposited data

How the results depend on the processing

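Cutting every list to the same length gave 2770 seedling-only and 2830 bud-only regions, and the pileup requirement 152 and 84, while bud-only regions numbered 2108 where peaks had to cover 50% of a region. Leaving out 1 library gave 5422 to 6303 and 1567 to 1968. For pileup, scaling by fragments gave 3959 higher and 16553 lower in seedling, and a minimum of 2-fold 1362 and 1050. That last pair became 874 and 1882 when scaled by fragments and 885 and 569 with 50% cover. Without seedling replicate 2 limma called 0 at the adjusted threshold, with 13880 at an unadjusted p under 0.05. In that fit 1262 regions had the same scaled pileup in both flower bud libraries, so that their spread was 0, and the prior degrees of freedom were 1.65, against 45.3 with all 4. The ranges over the 4 fits were 0 to 5836 higher and 0 to 9446 lower. Changes of 2-fold or more counted with no test, a setting added after the data were seen, numbered 1454 higher and 1086 lower without that library. Other scalings, centred on the median difference or quantile normalised, were also chosen after the data were seen and gave 7968 and 8370, and 6994 and 7294. Width as measured gave 2602 wider and 5532 narrower, and single libraries left out 3496 to 4273 and 2157 to 3263. Moved summits numbered 462 to 491 with 1 library left out, under the looser rule of 1 library for a tissue. The Jaccard difference ran from 0.120 to 0.169, and silique and H3K27me3 shares stayed within 1.5 times. Of 312 values of named regions under alternatives, 289 kept their direction and call and 23 their direction only, 21 of these without seedling replicate 2. The 312 do not cover every named value under every setting. With a −log10 q of 10 or more, 24 of the 32 named values were among them, and with lists of the same length 22. None was among them for 50% cover or for 1 peak in each library. No paired analysis was possible because the labels give the libraries no shared replicate numbers. At the depth of these libraries a region without a peak may still carry the mark.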
